A study of Mus musculus with 4 samples.

Results

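A set of 9 genes that respond to glucocorticoids, to metals or to both was followed in mouse embryonic fibroblasts (MEFs) with and without *Phf2*, which codes for a histone demethylase of the PHD finger and Jumonji family. The genes were *Fkbp5*, *Tsc22d3*, *Zbtb16*, *Klf9*, *Sgk1*, *Dusp1*, *Errfi1*, *Mt1* and *Mt2*, chosen by symbol as a readout of a steroid or serum difference between the groups. All 9 were found among the 24391 genes of the table of read counts, and all 9 passed the filter on low counts with 13668 genes in all. The series held 4 RNA-seq libraries of primary MEFs taken from embryos at E13.5 and kept quiescent, 2 of WT and 2 of *Phf2* KO. All 4 libraries carried the same alleles, *Phf2* flox/flox with ERCre/+, a tamoxifen-dependent Cre recombinase expressed from the broadly active *Rosa26* locus. The *Phf2* KO libraries alone were labelled as treated with tamoxifen, and the protocol gives 0.5 µM 4-hydroxytamoxifen for 7 days in a medium with charcoal-treated serum, a serum from which most steroid hormones have been removed. The vehicle and medium of the WT libraries are not given by name in the sources used here, so loss of *Phf2*, Cre activity, the drug and any difference in medium cannot be told apart in these groups. Reads of sex-linked genes, given with the library totals, differed between replicates 1 and 2 of each group, so these were not repeats of the same cells. The labels do not say which embryo or culture each library came from.

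Glucocorticoids enter the cell and bind the glucocorticoid receptor, Nr3c1, which is held in the cytoplasm by Hsp90 and its co-chaperones until the hormone is bound. The receptor then moves to the nucleus and binds glucocorticoid response elements, raising feedback genes such as *Fkbp5*, anti-inflammatory genes such as *Tsc22d3* and *Dusp1*, and transcription factors such as *Klf9* and *Zbtb16*. Metallothioneins are small cysteine-rich proteins that bind zinc and copper. Their genes are raised by the zinc sensor Mtf1 through metal response elements and, separately, by glucocorticoids. *Sgk1*, *Dusp1* and *Errfi1* are also raised quickly by serum and growth factors, so they report on more than steroid alone.

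The libraries held 21094743 to 26094268 assigned reads, and 3 reads, taken as the floor of detection, corresponded to 0.116 to 0.145 CPM, the reads of a gene scaled to a common library total. *Phf2* itself had 3244 and 3680 reads in the WT libraries against 1454 and 2158 in those labelled *Phf2* KO, so the reads followed the labels while remaining well above the floor. The libraries differed more by replicate number than by genotype, with 26.2% and 11.0% of genes called by edgeR when both were in the model. *Xist* had 10042 and 8336 reads in replicate 1 of WT and of *Phf2* KO, against 3 and 12 in replicate 2, and the Y-linked *Ddx3y* ran the other way, with 6 and 10 reads against 1271 and 1295. Markers of fibroblasts summed to 76323 and 82088 CPM in replicates 1 and 2 of WT and to 71548 and 69561 CPM in *Phf2* KO. Both *Phf2* KO sums were below both WT sums. Of the 10 fibroblast markers, 5 were below WT in both *Phf2* KO libraries, as were 18.0% of all genes. None was above in both, as were 15.5% of all genes. With replicate number in the model edgeR called 1 of the 10 between genotypes, lower, against 11.0% of all genes. Markers of macrophages summed to 4908 and 1052 CPM in replicates 1 and 2 of WT and to 5419 and 1627 CPM in *Phf2* KO, and all 20 of the markers tested, of 21 listed, were lower in replicate 2. Within each replicate number the macrophage sum was higher in *Phf2* KO. Of the 20 markers tested, 11 were higher in *Phf2* KO at both numbers, 0 were lower at both, and 6 had a negative log2 fold change. Between genotypes edgeR called 0 of the 20 without replicate number in the model and 10 with it, all higher. Over all genes these shares were 0.00732% and 11.0%, with 5.77% higher in the latter. The part of the macrophage markers in the results below was not tested. In bulk libraries, fewer cells of a type and less RNA per cell cannot be told apart.

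The 9 genes covered a wide range of levels. On the scale of CPM per kb of exon, which allows genes to be set against each other, *Mt1* was highest in WT at 234.7 ± 9.42 (SD, n = 2) and *Mt2* was next at 139.1 ± 4.84. *Dusp1* at 20.6 ± 9.56 and *Klf9* at 19.7 ± 0.957 overlapped between libraries and have no order. *Tsc22d3* followed at 8.58 ± 0.200. *Sgk1* at 3.74 ± 0.316 was above *Errfi1* at 3.04 ± 0.551 in the WT libraries, whereas these genes overlapped in *Phf2* KO MEFs at 3.12 ± 0.0177 and 2.93 ± 0.319. *Fkbp5* was low at 0.974 ± 0.118, and *Zbtb16* was lowest at 0.101 ± 0.0994. In CPM without regard to length, *Mt1* stood at percentile 93.2 of all genes tested and *Zbtb16* at percentile 2.66.

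**Figure D1:**
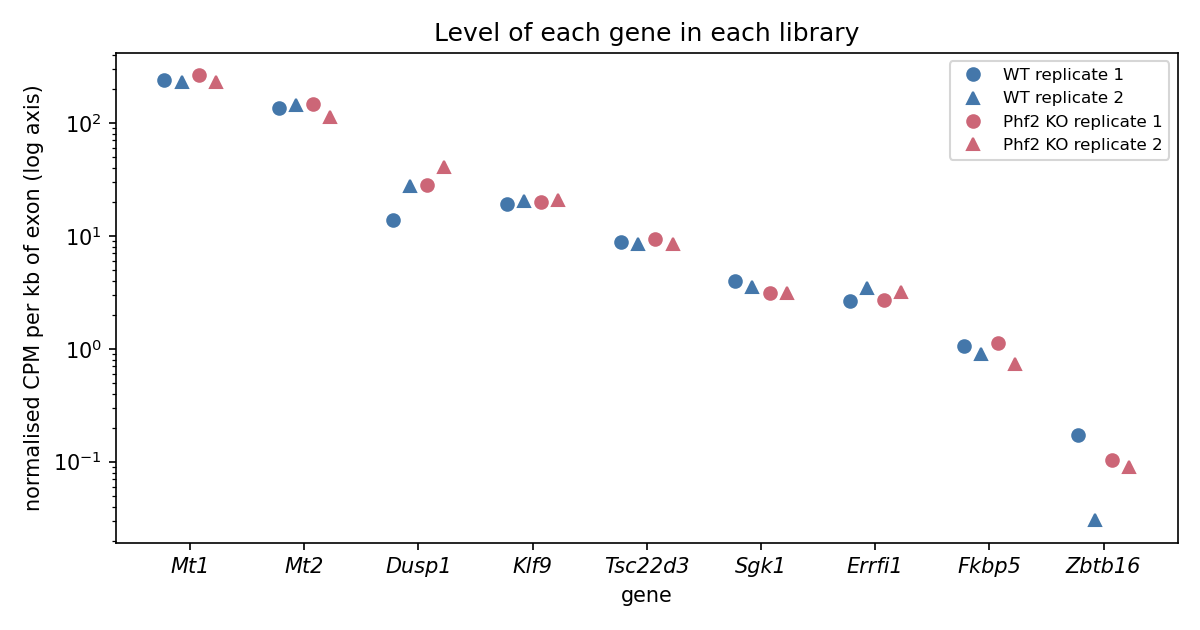
The level of each of the 9 genes in each library, as normalised CPM per kb of exon on a log axis; circles are replicate 1 and triangles replicate 2, in blue for WT and red for Phf2 KO. The metallothionein genes are highest in all 4 libraries and Zbtb16 is lowest, and Dusp1 is the gene whose Phf2 KO points lie above both WT points.

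None of the 9 genes was called different between *Phf2* KO and WT MEFs at an adjusted p under 0.1 in edgeR's quasi-likelihood test, in which 0.00732% of all genes were called. *Phf2* itself was not called by that test either (log2 fold change -0.79, SE 0.14, adjusted p = 0.999, edgeR). DESeq2 called *Phf2* (adjusted p = 0.00320), as did edgeR with replicate number in the model (adjusted p = 7.67e-19). A lack of calls in the main test therefore does not show a lack of difference. None had an unadjusted p under 0.05 in that test either, compared with 4.21% of all genes in either direction and 1.54% higher, and DESeq2 called 0 of the 9 against 0.400% of all genes, with 1 gene, *Dusp1*, under 0.05 before adjustment. In 7 of the 9 genes the libraries of the 2 groups overlapped and in 2 they did not, where 33.5% of all genes did not. *Dusp1* was higher in both *Phf2* KO libraries than in both WT libraries, as were 15.5% of all genes, and *Sgk1* was lower in both, as were 18.0% of all genes. Log2 fold changes, given throughout as *Phf2* KO over WT, ran from -0.26 to 0.07 in the 8 genes other than *Dusp1*, and the median of all 9 was -0.04 against 0.01 over all genes tested. All 9 of the 95% intervals held 0. The interval lay within 1 log2 unit of 0 on either side in 7 genes and within 0.5 log2 units in 4, namely *Tsc22d3*, *Klf9*, *Mt1* and *Mt2*. Unadjusted p-values ran from 0.0941 to 0.964, and the adjusted p of edgeR was 0.999 for each of the 9 genes.

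When the replicate number was added to the edgeR model as a block, 1 of the 9 genes was called, *Dusp1*, while 11.0% of all genes were called, 5.77% higher and 5.20% lower. The labels do not say that equal numbers mark a shared embryo or batch, and the block leaves 1 residual degree of freedom. The SEs, intervals and p-values of edgeR with the block therefore rest mostly on a spread pooled over genes. They say little about the spread of each gene between libraries.

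**Figure D2:**
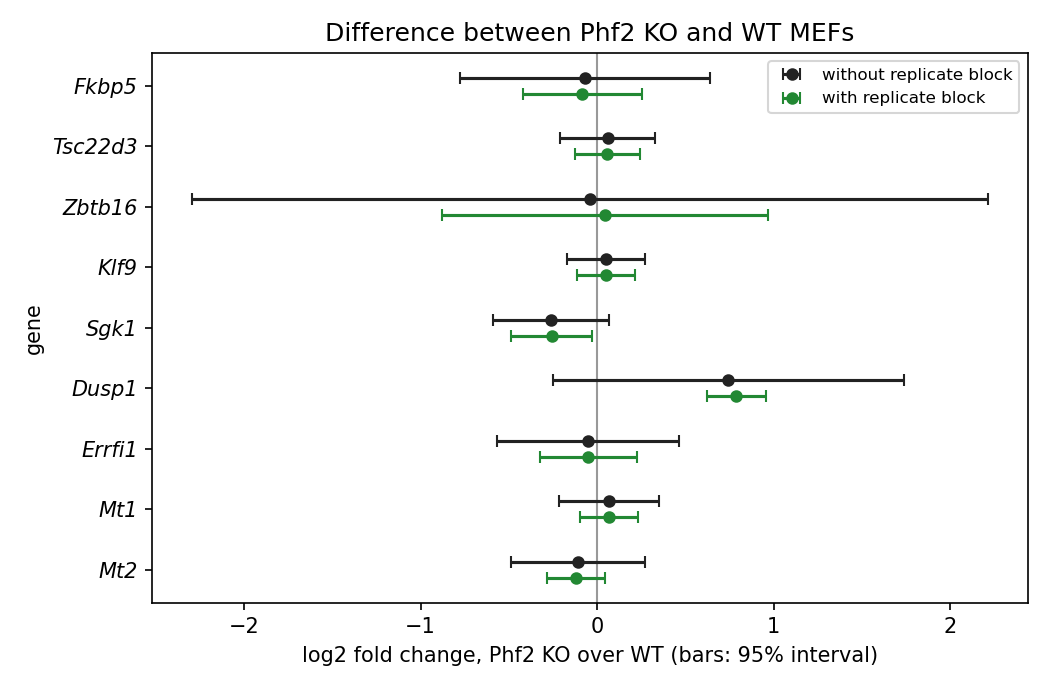
Log2 fold change of each gene, Phf2 KO over WT, from edgeR without (black) and with (green) the replicate number as a block; points are estimates and bars are 95% intervals. All 9 black intervals cross 0, and with the block those of Dusp1 (0.62 to 0.95) and Sgk1 (-0.49 to -0.03) do not.

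*Fkbp5* codes for a co-chaperone of Hsp90 that lowers the affinity of the glucocorticoid receptor for its ligand. It lies on the reverse strand of chromosome 17 (mm9 chr17:28536040-28654469, with 17 exonic blocks). Its normalised level was 6.68 and 5.63 CPM in replicates 1 and 2 of WT and 7.09 and 4.66 CPM in *Phf2* KO. The *Phf2* KO libraries held both the highest and the lowest value, so the groups overlapped fully. Its log2 fold change was -0.07 (SE 0.27, 95% interval -0.78 to 0.64, edgeR). *Fkbp5* was lower in replicate 2 of each group, with an estimated log2 difference of -0.42 (adjusted p = 0.0652, edgeR with genotype in the model), in the same direction as the macrophage markers.

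*Tsc22d3* codes for the glucocorticoid-induced leucine zipper, an anti-inflammatory mediator, and lies on the X chromosome (mm9 chrX:137074067-137135198, reverse strand, 6 exonic blocks). It measured 37.9 and 36.6 CPM in the WT libraries against 40.8 and 36.9 CPM without *Phf2*. The values of the groups interleaved in a narrow range. The log2 fold change of 0.06 (SE 0.10, 95% interval -0.21 to 0.33, edgeR) was smaller than the spread between libraries.

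*Zbtb16* codes for the zinc finger transcription factor PLZF. It lies on chromosome 9 (mm9 chr9:48462416-48644050, reverse strand, 7 exonic blocks). It had 21 and 4 reads in the WT libraries and 11 reads in each *Phf2* KO library, which corresponded to 0.871, 0.154, 0.531 and 0.458 CPM. The WT libraries therefore held both extremes, and the lower was close to the floor. The log2 fold change was -0.04 with a 95% interval from -2.29 to 2.21 (SE 0.85, edgeR). With few reads and WT libraries that far apart, a difference of several fold in either direction was not detectable in this fit. With the replicate block the estimate was 0.04 and the interval -0.88 to 0.97 (SE 0.47, edgeR). In fits without the block, the estimate was 1.69 without WT replicate 1 and -0.84 without WT replicate 2. The estimated log2 difference of replicate 2 from replicate 1 was -1.25 (adjusted p = 0.0456, edgeR), although between the *Phf2* KO libraries the read count was equal.

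*Klf9* codes for a Krüppel-like transcription factor and lies on chromosome 19 (mm9 chr19:23215716-23241401, forward strand, 2 exonic blocks). It measured 62.0 and 66.4 CPM in the WT libraries against 65.4 and 67.6 CPM without *Phf2*. All 4 libraries lay close together and the groups overlapped. Its log2 fold change was 0.05 (SE 0.08, 95% interval -0.17 to 0.27, edgeR), the narrowest interval of the 9 genes.

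*Sgk1* codes for the serum- and glucocorticoid-regulated kinase, which acts on ion channels and on FoxO factors. The gene spans mm9 chr10:21601990-21719709 on the forward strand, with 18 exonic blocks. RefSeq gives 6 starts for it, and the window from 250 bases before to 50 bases after each was searched on both strands for the palindromic glucocorticoid response element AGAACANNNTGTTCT. This element was present in 3 of 32851 mouse promoter windows (0.00913%), and the fifth *Sgk1* promoter was 1 of the 3. The 250 bases before that start (mm9 chr10:21713446-21713695, forward strand, RefSeq) are shown because they hold the only match to the palindrome among the 16 promoters of 8 of the genes, with the palindrome in capitals, beginning 189 bases before the start. *Zbtb16* was not searched. Only exact matches within these windows were counted, so a lack of match does not show that a gene lacks sites for the receptor.
Sgk1: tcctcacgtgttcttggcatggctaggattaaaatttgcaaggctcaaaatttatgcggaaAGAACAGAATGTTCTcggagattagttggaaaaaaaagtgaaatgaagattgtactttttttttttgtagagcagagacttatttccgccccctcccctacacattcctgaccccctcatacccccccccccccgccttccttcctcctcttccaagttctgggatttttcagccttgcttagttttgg
The shorter motif AGAACA, which is also an arm of the palindrome and is therefore found again inside it, was present in 4 of the 16 promoters and in 19.0% of all promoters.

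*Sgk1* measured 19.4 and 17.2 CPM in the WT libraries against 15.3 and 15.2 CPM without *Phf2*. Both *Phf2* KO libraries were below both WT libraries, and the mean in *Phf2* KO was 83.4% of that in WT. Its fitted log2 fold change was -0.26 (SE 0.12, 95% interval -0.59 to 0.07, edgeR). With the replicate block the estimate was also -0.26, the interval was -0.49 to -0.03, and the adjusted p of 0.183 stayed above the threshold. Without WT replicate 1 the estimate was -0.16 and without WT replicate 2 it was -0.36.

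*Dusp1* codes for the nuclear phosphatase that inactivates the MAP kinases p38, JNK and ERK. It is a compact gene on chromosome 17 (mm9 chr17:26642535-26645464, reverse strand, 2 exonic blocks). Its single RefSeq promoter held no exact match to the palindrome, which almost all promoters lack. It held 1 match to TGACGTCA, the cyclic AMP response element, which begins 143 bases before the start. That element was present in 1.79% of all promoters and in 2 of the 16 promoters searched, the other being the second promoter of *Errfi1*, where it begins 51 bases before the start. The 250 bases before the *Dusp1* start (mm9 chr17:26645418-26645667, reverse strand, RefSeq) are shown because *Dusp1* was the gene called with the block, with the element in capitals.
Dusp1: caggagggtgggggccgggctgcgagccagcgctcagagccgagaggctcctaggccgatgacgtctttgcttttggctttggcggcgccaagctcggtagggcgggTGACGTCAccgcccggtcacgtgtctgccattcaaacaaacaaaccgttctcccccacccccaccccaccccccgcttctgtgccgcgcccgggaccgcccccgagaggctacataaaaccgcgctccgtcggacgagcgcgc

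*Dusp1* measured 37.3 and 73.8 CPM in replicates 1 and 2 of WT and 75.9 and 110.2 CPM in *Phf2* KO. The lower *Phf2* KO library was just above the higher WT library. Replicate 2 was higher than replicate 1 in each group, and *Phf2* KO was higher than WT at each replicate number, by 2.03-fold in replicate 1 and 1.49-fold in replicate 2. Without the block the log2 fold change was 0.74 (SE 0.38, 95% interval -0.25 to 1.74, edgeR), and the gene was not called. With the block it was 0.79 (SE 0.085, 95% interval 0.62 to 0.95, adjusted p = 1.23e-17, edgeR), and DESeq2 with the block gave 0.80 with an adjusted p of 1.37e-06. The log2 ratios within replicates 1 and 2 were 1.02 and 0.58. Both lie outside that interval, so it is narrower than the spread of *Dusp1* itself. With 1 library left out and no block, the estimate was 0.35 or 1.30 when WT replicate 1 or 2 was dropped and 0.99 or 0.45 when *Phf2* KO replicate 1 or 2 was dropped. The log2 difference of replicate 2 from replicate 1 was 0.75 (adjusted p = 4.52e-17, edgeR), about as large as that between the genotypes.

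*Errfi1* codes for a feedback inhibitor of the EGF receptor, raised by growth factors and by glucocorticoids. It lies on chromosome 4 (mm9 chr4:150228028-150243001, forward strand, 6 exonic blocks). It measured 9.50 and 12.3 CPM in WT and 9.70 and 11.3 CPM in *Phf2* KO. Both *Phf2* KO values lay between the WT values. The log2 fold change was -0.05 (SE 0.19, 95% interval -0.57 to 0.46, edgeR).

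The metallothionein genes *Mt1* and *Mt2* are neighbours on the forward strand of chromosome 8, with starts 6471 bp apart (mm9 chr8:96702989-96704225 for *Mt1* with 2 exonic blocks and chr8:96696518-96697467 for *Mt2* with 3). Their promoters were searched on both strands for the core of the metal response element, written as TGCACNC or TGCGCNC. *Mt1* held 3 matches, 1 before and 2 after the start, and *Mt2* held 4, of which 3 lay before the start. At least 3 matches were present in 1.97% of all promoters and at least 4 in 0.517%, while 25.7% had any match. A single match was present in the *Dusp1* promoter and in the sixth *Sgk1* promoter. The 250 bases before each start are given for comparison (mm9 chr8:96702739-96702988 and chr8:96696268-96696517, forward strand, RefSeq), with the matches in capitals, those on the reverse strand included.
Mt1: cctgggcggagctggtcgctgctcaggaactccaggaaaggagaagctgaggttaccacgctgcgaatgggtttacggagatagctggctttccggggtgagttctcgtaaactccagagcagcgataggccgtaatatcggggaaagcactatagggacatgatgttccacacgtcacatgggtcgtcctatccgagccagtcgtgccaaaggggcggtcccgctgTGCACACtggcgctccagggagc
Mt2: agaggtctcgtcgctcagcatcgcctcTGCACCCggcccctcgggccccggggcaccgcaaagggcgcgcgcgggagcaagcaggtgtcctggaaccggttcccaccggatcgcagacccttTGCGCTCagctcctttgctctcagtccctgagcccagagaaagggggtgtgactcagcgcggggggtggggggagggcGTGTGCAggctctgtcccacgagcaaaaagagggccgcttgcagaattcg

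*Mt1* measured 181.7 and 171.7 CPM in the WT libraries against 198.7 and 172.1 CPM without *Phf2*. The higher *Phf2* KO library was the highest of the 4 and the other lay among the WT libraries. On the log2 scale the difference was 0.07 (SE 0.11, 95% interval -0.21 to 0.35, edgeR). *Mt2* measured 75.4 and 79.2 CPM in WT and 80.8 and 62.6 CPM in *Phf2* KO. The *Phf2* KO libraries thus held both the highest and the lowest value. On the log2 scale the difference was -0.11 (SE 0.14, 95% interval -0.49 to 0.27, edgeR). The CPM ratio of *Mt1* to *Mt2* was 2.41 and 2.17 in WT against 2.46 and 2.75 in *Phf2* KO. Both *Phf2* KO ratios were above WT, but replicate 1 exceeded the higher WT ratio by less than the WT ratios differed. No share over other gene pairs was set beside this. The sum of both genes was 257.1 and 250.9 CPM in WT and 279.6 and 234.8 CPM in *Phf2* KO, so the groups overlapped in the total metallothionein level.

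*Phf2* KO over WT had the same sign in both replicate numbers for 5 of the 9 genes, 4 higher and 1 lower. The signs were opposite for 4, *Fkbp5*, *Zbtb16*, *Errfi1* and *Mt2*. Of the 13668 genes tested, 4450 were higher and 4125 lower in both, so mixed signs are not particular to these 9 genes. In 7 of the 9 genes the estimated difference between replicate numbers was larger than that between genotypes, and no share over all genes was set beside this count. Of the 9 genes, 3 differed between replicate numbers at an adjusted p under 0.1 (edgeR), where 26.2% of all genes did. *Dusp1* was higher in replicate 2, as were 12.6% of all genes, and *Fkbp5* and *Zbtb16* were lower, as were 13.6%.

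**Figure D3:**
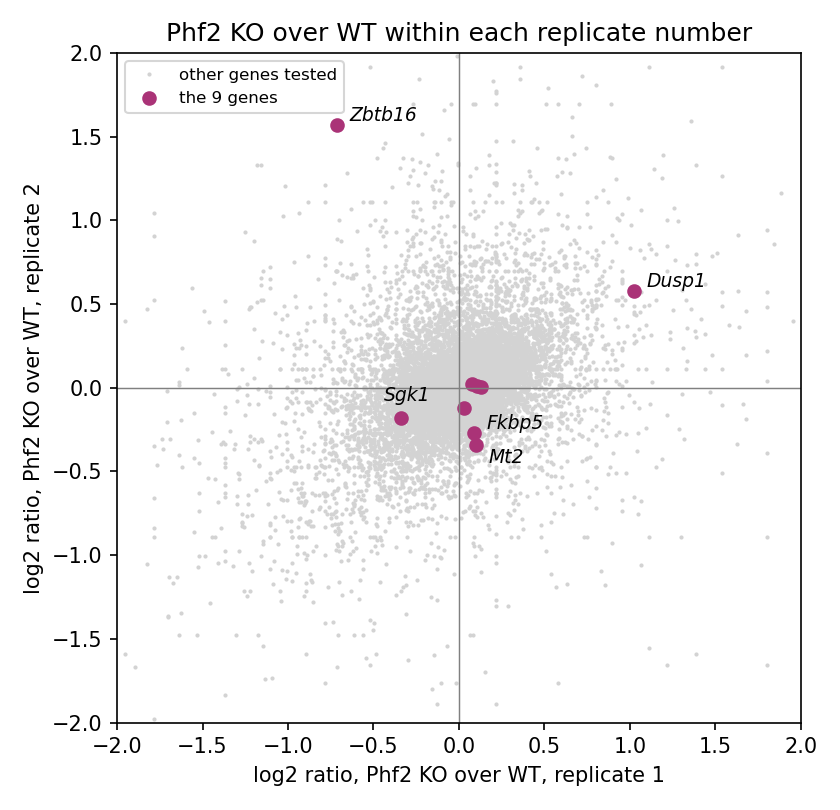
The log2 ratio of CPM, Phf2 KO over WT, in replicate 1 (x axis) against replicate 2 (y axis), with the 9 genes in magenta over the other genes tested in grey; genes beyond 2 log2 units on either axis are outside the plot. Dusp1 lies at 1.02 and 0.58 and Sgk1 at -0.34 and -0.18, while Zbtb16 lies at opposite signs (-0.71 and 1.57), and the 4 unnamed points near the centre are Tsc22d3, Klf9, Mt1 and Errfi1.

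Other glucocorticoid-induced genes gave a mixed picture. Fold changes of these and the following lists come from the edgeR fit without the block unless the block is named. Of the 25 listed, 20 were tested, with a median log2 fold change of 0.10. Both *Phf2* KO libraries were above WT in 7 genes and below in 2, where 15.5% and 18.0% of all genes were. Without the block edgeR called 0 (1 higher and 1 lower at an unadjusted p under 0.05) and DESeq2 called 1, *Angptl4*. With the block 3 of the 20 were called, against 11.0% of all genes, of which *Cebpd* and *Ddit4* were higher and *Angptl4* lower. *Angptl4*, a lipoprotein lipase inhibitor that PPARs also raise, measured 18.3 and 19.3 CPM in WT and 7.67 and 8.32 CPM in *Phf2* KO, a log2 fold change of -1.23 (SE 0.13). Its direction in *Phf2* KO was thus opposite to that of *Dusp1*. *Slc10a6*, a sulphated steroid transporter, had only 11 and 18 reads in WT and 21 and 29 in *Phf2* KO, with a log2 fold change of 0.95 (SE 0.38) that was not called by either edgeR fit. Of 12 glucocorticoid-repressed genes 9 were tested, with a median of -0.14. Without the block edgeR called 0 of them (1 at an unadjusted p under 0.05), DESeq2 called 0, and with the block 2 were called, against 11.0% of all genes. The chemokine *Ccl2* was called higher (log2 fold change 0.52, SE 0.13 with the block, and 0.50, SE 0.62 without it) and the matrix metalloproteinase *Mmp3* lower (-0.97, SE 0.17 with the block, and -0.97, SE 0.23 without it). *Ccl2* fell by replicate number as the macrophage markers did, with 15.4 and 5.86 CPM in WT and 21.2 and 8.82 CPM in *Phf2* KO.

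The glucocorticoid receptor *Nr3c1* measured 83.6 and 83.7 CPM in WT and 77.1 and 87.4 CPM in *Phf2* KO, a log2 fold change of -0.03 (SE 0.09). The mineralocorticoid receptor *Nr3c2*, which also binds glucocorticoids, was low at 0.749 to 0.871 CPM (log2 fold change -0.11, SE 0.33). *Hsd11b1*, the enzyme that regenerates active glucocorticoid in the cell, was low at 0.996 and 1.35 CPM in WT and 1.496 and 2.37 CPM in *Phf2* KO. Both *Phf2* KO libraries were higher, as were 15.5% of all genes, and the log2 fold change was 0.72 (SE 0.37, edgeR). *Hsd11b1* had only 24 and 35 reads in WT and 31 and 57 in *Phf2* KO. It was not called by DESeq2 or by either edgeR fit. *Hsd11b2*, which inactivates the hormone, had 5 to 8 reads per library and did not pass the filter. Of the 15 receptor and hormone handling genes 14 were tested, with a median log2 fold change of -0.03. The progesterone receptor gene *Pgr* had 133 and 154 reads in WT against 24 and 7 in *Phf2* KO (log2 fold change -3.01, SE 0.61). DESeq2 called 2 of the 14, *Pgr* among them, and edgeR with the block called 3, against 11.0% of all genes, with *Pgr* lower and *Hsp90aa1* higher, whereas edgeR without the block called 0 of the 14 (2 at an unadjusted p under 0.05).

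Of 17 genes of zinc handling, 15 were tested and the median was -0.08. Without the block edgeR and DESeq2 called 0 of them, 0 had an unadjusted p under 0.05 in edgeR, and with the block, which called 11.0% of all genes, 1 was called, the transporter *Slc39a13*, which was higher (log2 fold change 0.29, SE 0.084 with the block, and 0.28, SE 0.19 without it). The metal sensor *Mtf1* measured 32.5 and 30.1 CPM in WT and 29.4 and 28.5 CPM in *Phf2* KO (log2 fold change -0.11, SE 0.10). Both *Phf2* KO libraries were below WT for *Mtf1*, as in 3 of the 15 genes tested and in 18.0% of all genes. The exons of *Mtf1* overlap those of a neighbouring gene. The zinc exporter *Slc30a4* had a log2 fold change of -0.26 (SE 0.18) and was not called.

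**Figure D4:**
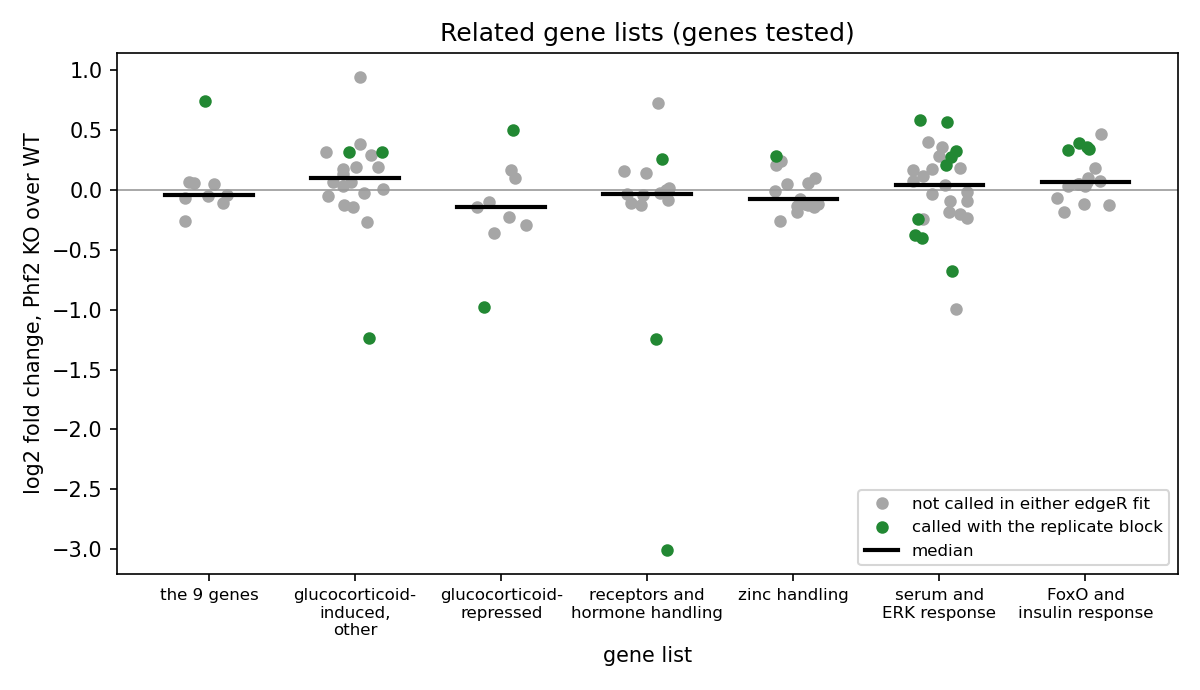
Log2 fold change, Phf2 KO over WT, without the block, of each gene tested in the 9 genes and in 6 related lists; green points were called by edgeR with the replicate block, grey points were not called, and black bars are medians. The medians run from -0.14 to 0.10, and the genes called with the block lie on both sides of 0 in 4 of the 6 related lists.

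Serum and ERK response genes were examined because *Dusp1* belongs to the same early response. All 27 listed were tested, with a median log2 fold change of 0.04. Without the block edgeR called 0 (2 higher and 2 lower at an unadjusted p under 0.05) and DESeq2 called 1, *Junb*. With the block 9 of the 27 were called, 5 higher and 4 lower, against 11.0% of all genes, 5.77% higher and 5.20% lower. *Fos* and *Junb*, partners in the AP-1 transcription factor, were higher in both *Phf2* KO libraries, as were 15.5% of all genes. *Fos* measured 19.4 and 16.3 CPM in WT and 28.1 and 25.5 CPM in *Phf2* KO (log2 fold change 0.59, SE 0.14). *Junb* measured 35.3 and 36.4 CPM in WT against 55.8 and 50.3 CPM in *Phf2* KO (0.57, SE 0.10). *Ier2*, *Hbegf* and *Egr1* were called higher with the block although their groups overlapped, and like *Dusp1* they were higher in replicate 2 of each group. *Klf6*, *Myc*, *Nr4a1* and *Etv4* were called lower. *Etv4*, an ETS factor raised by ERK signalling, measured 2.53 and 2.97 CPM in WT and 1.74 and 1.71 CPM in *Phf2* KO (log2 fold change -0.68, SE 0.24), and *Egr3* at 17 and 21 reads in WT and 8 and 9 in *Phf2* KO was not called.

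**Figure D5:**
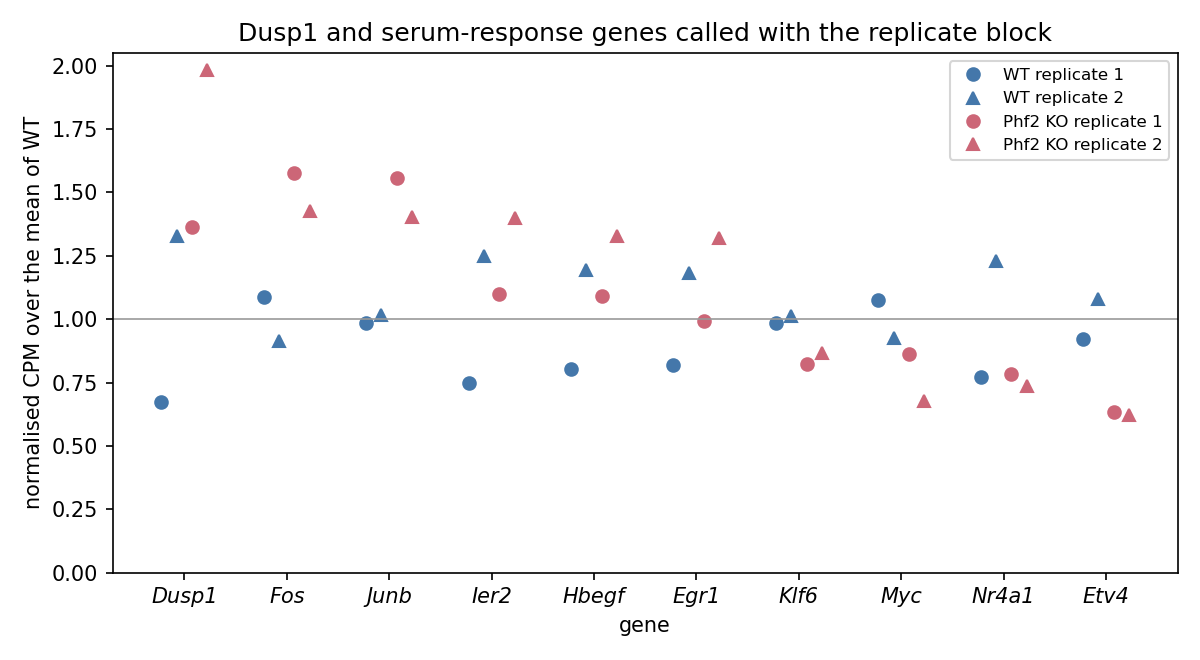
Normalised CPM in each library divided by the mean of the 2 WT libraries, for Dusp1 and the 9 serum and ERK response genes called by edgeR with the replicate block; symbols are as in the plot of levels by library. Phf2 KO lies above both WT libraries for Dusp1, Fos and Junb, below both for Klf6, Myc and Etv4, and overlaps with WT for Ier2, Hbegf, Egr1 and Nr4a1.

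Of 18 genes that FoxO factors raise or insulin lowers, to which *Klf9* and *Sgk1* are linked through PI3K signalling, 17 were tested, with a median log2 fold change of 0.06. Without the block edgeR called 0 (3 higher at an unadjusted p under 0.05) and DESeq2 called 0. With the block 4 of the 17 were called, all higher, against 11.0% of all genes and 5.77% higher, namely *Ccng2*, *Pik3ip1*, *Klf15* and *Gadd45a*. *Klf15*, itself a glucocorticoid target, measured 12.4 and 12.9 CPM in WT and 17.0 and 16.1 CPM in *Phf2* KO (log2 fold change 0.39, SE 0.12). *Trim63*, an atrophy-linked ubiquitin ligase, had a log2 fold change of 0.47 (SE 0.27) and was not called.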

How the data were processed

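RNA was sequenced as single reads from 4 MEF libraries. Per the labels and the methods of the study, the authors trimmed the reads, removed ribosomal reads, aligned the rest to mm9 with STAR and counted reads per gene on the reverse strand with featureCounts, and the deposited table holds these raw counts, not normalised. A second deposited table holds the authors' own DESeq2 comparison and was not used. Counts were scaled by TMM, filtered with filterByExpr and tested with edgeR 4.0.16 (glmQLFit and glmQLFTest, R 4.3.3), without a block, for *Phf2* KO against WT, with Benjamini-Hochberg adjustment over the 13668 genes kept and a threshold of 0.1. Standard errors are the coefficient over the root of F. Alternatives were DESeq2 1.42.0, other scalings, no filter, a threshold of 0.05, the replicate block and leaving out each library. DESeq2 with the block, and the block with other scalings, were added after seeing the data. The edgeR steps were also run on simulated counts with a single dispersion, the spread of counts beyond sampling, for every gene. That dispersion was close to the one fitted with the block, so the simulation does not show how the main test performs on these data. Levels per kb used exonic lengths of the mm9 annotation, and promoter sequences came from RefSeq (table of GRCm38.p6), each matched exactly to mm9.

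The replicate numbers come from the labels, which do not say what they mark. Over 11556 genes averaging 50 or more reads, the log2 difference between replicates 2 and 1 in WT had a correlation of 0.854 with that in *Phf2* KO (a value over genes, which are not replicates). The chi-square per degree of freedom, larger when 2 libraries differ more, was 51.0 between the WT libraries and 35.1 between the *Phf2* KO libraries. Between genotypes it was 18.8 at replicate number 1 and 14.6 at number 2. Library identifiers were also consecutive within each replicate number. Libraries were thus more alike by number than by genotype, as matched libraries would be. The labels state no pairing, and the main test left it out. Differences between replicate numbers, those of sex-linked genes included, therefore counted as spread within a group in that test. The common dispersion was 0.0451 without the block and 0.00363 with it.

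The 9 genes and the related lists were chosen with earlier results of these data known. From each related list the text names genes called by edgeR without the block, genes called with the block whose log2 fold change exceeded 0.5 in size, and the 2 with the largest change. The other list genes named as called with the block or by DESeq2 (*Cebpd*, *Ddit4*, *Hsp90aa1*, *Ier2*, *Hbegf*, *Egr1*, *Klf6*, *Myc*, *Nr4a1*, *Ccng2*, *Pik3ip1* and *Gadd45a*), and *Xist* and *Ddx3y*, were chosen after their values were seen. In the receptor and hormone handling list, 1 gene is not reported here by name.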

Additional observations from a re-analysis of the deposited data

How the results depend on the processing

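Without the replicate block, 0 of the 9 genes were called by DESeq2, with RLE factors, with library size alone, with no filter beyond 1 count or at a threshold of 0.05. Leaving out a library also gave 0 of 9, but there the lone library is assumed to vary like the other group, which supplies the spread, and 0 of all genes were called, so these fits say nothing about stability. With the replicate block 1 was called, *Dusp1*, also in DESeq2 with the block (1) and with the block under RLE factors (1) or library size alone (1), which gave *Dusp1* adjusted p of 1.37e-06, 1.89e-19 and 6.26e-20. The block changed no other call among the 9 genes. In the related lists, the block called 3 glucocorticoid-induced, 2 glucocorticoid-repressed, 3 receptor and hormone handling, 1 zinc handling, 9 serum and ERK response and 4 FoxO and insulin response genes, and DESeq2 without it called 1, 0, 2, 0, 1 and 0. Over all genes, 1 was called without the block, 0 at a threshold of 0.05, 0 to 0 with a library left out, 64 by DESeq2, 1500 with the block (789 higher and 711 lower), 302 by DESeq2 with the block, 1611 with the block and RLE factors (899 higher and 712 lower) and 1613 with the block and library size alone (803 higher and 810 lower). Of the 9 genes, DESeq2 called 1 between replicate numbers where edgeR called 3.

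Leaving out each library turned the sign of the log2 fold change in 6 genes that were not called, *Fkbp5* (-0.40 to 0.20), *Tsc22d3* (-0.017 to 0.13), *Zbtb16* (-0.84 to 1.69), *Errfi1* (-0.21 to 0.13), *Mt1* (-0.039 to 0.17) and *Mt2* (-0.30 to 0.063). *Zbtb16* was 0.044 with the block, 0.35 in DESeq2 with the block, and 0.050 and 0.029 with the block under RLE factors and library size alone. *Dusp1* stayed above 0 (0.35 to 1.30) and *Sgk1* below 0 (-0.36 to -0.16) when a library was left out. The groups of these genes did not overlap, so leaving out a library could not turn their sign. Their constant sign therefore adds nothing on stability. With 2 libraries a group, and 4 to 21 reads in *Zbtb16*, differences smaller than the intervals given were beyond the reach of these data.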
